A study of Mus musculus with 16 samples.

Results

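The genes described here are the 3 microsomal glutathione transferases, Mgst1, Mgst2 and Mgst3, together with 7 antioxidant enzymes, Gpx1, Gpx4, Prdx1, Prdx2, Sod1, Sod2 and Cat. They make up 10 of the 46078 genes in the table and were selected by name, and Mgst1 was chosen because its difference between MAC-1low and MAC-1- HSCs was not the same at 4 weeks as at steady state. The values of Mgst1 are therefore given as a description with no test, and tests are reported for the other 9 genes. All 10 passed edgeR's filter on low counts.

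RNA was sequenced from HSCs of WT B6.SJL mice, sorted by their surface level of MAC-1, the integrin of which CD11B, encoded by Itgam, is a subunit. HSCs were live lineage-negative cKIT+ SCA1+ CD48- CD150+ marrow cells, and 400 to 600 of them went into a sample. Steady state (SS) mice were untreated and gave MAC-1- and MAC-1low HSCs, with 3 samples each. The other populations came from marrow 4 weeks after 8000 LSK cells had been transplanted into recipients irradiated with 900 cGy, and gave MAC-1- (3 samples), MAC-1low (4 samples) and MAC-1+ HSCs (3 samples). The labelled gate names no donor marker. The study's methods describe a CD45 allele as a donor label in a serial transplantation with this cell dose, without tying it to the sequenced samples. The age and sex of the mice were not given in the labels. Neither labels nor methods tie the samples to single mice, so p-values measure the spread between these samples, which may be technical. In bulk RNA, fewer cells of a type and less RNA per cell cannot be told apart.

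Oxygen metabolism releases superoxide, which superoxide dismutases turn into hydrogen peroxide, and catalase, glutathione peroxidases and peroxiredoxins remove the peroxide. Glutathione peroxidases draw on glutathione, and peroxiredoxins are mostly recharged by thioredoxin. Microsomal glutathione transferases sit in membranes, where they join glutathione to reactive compounds and can reduce lipid peroxides. HSCs are known for a low level of reactive oxygen species, and a rise in it is tied to loss of quiescence.

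The samples held 13781278 to 28580658 counts, of which the 10 genes took 0.506% to 0.77%, and 0.506% to 0.597% in 4 week MAC-1+ HSCs. Itgam had 96 to 478 counts in the 4 week MAC-1+ samples, 3 to 95 in 4 week MAC-1low and 0 to 47 in 4 week MAC-1- samples, and 15 to 30 against 0 to 5 in SS MAC-1low and SS MAC-1- samples. HSC markers (8 of 8 with counts in each population) summed to 691 to 890 CPM (counts scaled to the size of the library) in 4 week MAC-1- HSCs, below the 1477 to 3457 CPM of the other populations. Megakaryocyte markers stood apart in the same samples. They summed to 4251 to 6744 CPM in 4 week MAC-1- HSCs (7 of 7 genes with counts), with Pf4 alone at a mean of 4957 CPM, against 156 to 1097 CPM elsewhere (6 of 7 genes, with Gp6 or Gp1bb at 0). Neutrophil markers summed to 257, 1135 and 7694 CPM in 4 week MAC-1+ replicates 1 to 3 (10 of 10 genes) and to 89.8 to 395 CPM in the other samples, where Ctsg, Ltf, Ly6g, Ngp or Elane was at 0 in some populations. Markers of T and NK cells, with Nkg7 the highest, summed to 323 to 644 CPM in 4 week MAC-1- HSCs (2 of 7 genes with counts), 16 to 176 CPM in 4 week MAC-1+ HSCs (3 of 7) and 163 to 380 CPM elsewhere, with Cd3g at 0 in 4 of the 5 populations. Mitochondrial genes took 7.02% to 9.62% of counts in 4 week MAC-1+ samples, 3.96% to 6.24% in SS MAC-1low samples and 6.56% to 9.55% in the rest. The part of these markers and of the mitochondrial share in the differences below was not tested.

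Sequence before the start sites was read for the core of the antioxidant response element, the motif bound by NRF2, because the members belong to its known target families. RefSeq windows of 300 bases (250 before and 50 after each start, GRCm38.p6) were searched on both strands for TGACNNNGC. Of the 14 windows of the 10 members, 3 held it, beside 12.4% of all 32851 windows. They belong to Prdx1, Mgst1 and Sod1, in each case on the strand opposite to the gene. The stretches are shown because they set side by side a member that was lower with MAC-1, Mgst1, and a member with little difference. Mgst1 was chosen because its MAC-1low against MAC-1- difference was not the same at 4 weeks as at steady state. Capitals mark the motif, with 10 bases on each side, read 5′ to 3′ on the minus strand.
Prdx1, chr4:116685456-116685484: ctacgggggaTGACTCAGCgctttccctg
Mgst1, chr6:138140461-138140489: ccccgcctccTGACCGTGCcaagccccgc
Sod1, chr16:90220696-90220724: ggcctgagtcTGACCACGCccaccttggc
The Mgst1 stretch lies upstream of the RefSeq start but inside the first exon and UTR of 1 transcript, Mgst1-201, in GENCODE M21 (GRCm38), an annotation matched here by Ensembl identifier, while the other stretches touch no annotated exon. A match of these letters is a description of the sequence and not a measured site.

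Mgst1 encodes the enzyme of the microsomal family found in the endoplasmic reticulum and outer mitochondrial membrane. Its gene lies on chr6:138140316-138156755 on the plus strand in GENCODE M21. In 4 week MAC-1- HSCs Mgst1 stood at 33.6, 37.6 and 44.2 CPM. In 4 week MAC-1low HSCs it stood at 145, 363, 206 and 207 CPM, and in 4 week MAC-1+ HSCs at 247, 310 and 308 CPM. The SS MAC-1- samples held 229, 150 and 134 CPM, and the SS MAC-1low samples 117, 129 and 152 CPM. Every 4 week MAC-1- sample was thus below all 13 other samples, and the lowest of these was 2.64-fold above the highest 4 week MAC-1- sample.

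In order of their means, the populations ran from 4 week MAC-1+ (288 ± 35.9 CPM, SD, n = 3) through 4 week MAC-1low (230 ± 92.9, n = 4), SS MAC-1- (171 ± 51.3, n = 3) and SS MAC-1low (133 ± 17.9, n = 3) to 4 week MAC-1- (38.5 ± 5.34, n = 3). The ranges of the first 4 overlapped from neighbour to neighbour. At 4 weeks the mean was 5.99-fold higher in MAC-1low than in MAC-1- HSCs and 7.5-fold higher in MAC-1+ than in MAC-1- HSCs, which are log2 differences of 2.58 and 2.91 in the fitted model. At steady state the same difference between MAC-1low and MAC-1- was -0.37, so that the differences at the 2 time points were 2.95 apart on the log2 scale. MAC-1- HSCs at 4 weeks were 4.44-fold lower than MAC-1- HSCs at steady state, a log2 difference of -2.15. These values are those on which Mgst1 was chosen, or share samples with them.

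**Figure D1:**
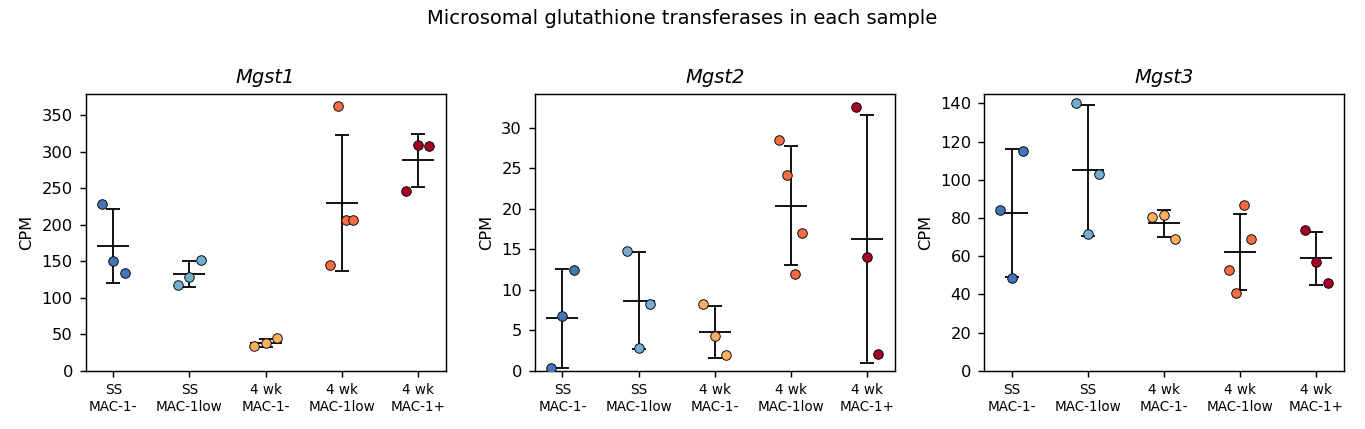
Levels of Mgst1, Mgst2 and Mgst3 in CPM (vertical axes, from 0) in the 5 HSC populations, with a point for each sample and a bar with whiskers for the mean ± SD. Mgst1 lies between 33.6 and 44.2 CPM in 4 week MAC-1- samples and between 117 and 363 CPM in the others, while Mgst2 and Mgst3 overlap in most populations.

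Mgst2 and Mgst3, the other members of the family, did not pass the test in any comparison. Mgst2, which like leukotriene C4 synthase can join glutathione to leukotriene A4, was the least abundant of the 10 genes, with 4 to 687 counts per sample. It stood at 8.22, 4.25 and 1.93 CPM in 4 week MAC-1- samples and at 28.5, 24.2, 11.9 and 17 CPM in 4 week MAC-1low samples, which did not overlap. The difference was 2.09 ± 1.18 (log2, SE) with an adjusted p of 0.77 in edgeR's quasi-likelihood test. The 4 week MAC-1+ samples spread from 2.1 to 32.6 CPM and the SS samples from 0.293 to 14.8 CPM. Mgst3, a glutathione peroxidase and transferase of the same membrane family, ranged from 40.9 to 140 CPM over all samples. Its largest difference was between 4 week MAC-1+ (58.9 ± 13.9 CPM, SD, n = 3) and SS MAC-1low HSCs (105 ± 34.3, n = 3), at -0.83 ± 0.39 (log2, SE) with an edgeR adjusted p of 0.412.

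Per kilobase of exon, which allows levels of different genes to be set side by side, Gpx1 ranked highest over the 16 samples (1715 CPM per kb), followed by Prdx1 (884), Gpx4 (256), Prdx2 (171), Mgst1 (87.3), Mgst3 (69.5), Cat (49.9), Sod1 (34.6), Sod2 (17.1) and Mgst2 (3.21). The place of Sod1 depended on the length used. Scaled by its longest basic coding transcript in place of all exons, an alternative chosen after seeing the data, Sod1 moved from rank 8 to rank 5 and the ranks of Mgst1, Mgst3 and Cat each moved down by 1. Within populations Gpx1, Prdx1, Gpx4 and Prdx2 held ranks 1 to 4 in all 5, and Mgst1 held rank 5 or 6 in 4 of them and rank 8 in 4 week MAC-1- HSCs (19.1 CPM per kb, below Mgst3, Cat and Sod1). In 4 week MAC-1- HSCs alone, Gpx1 and Prdx1 made up 31.2% and 48.3% of the CPM of the 10 genes, while Mgst1 made up 0.495%, against 5.48% in 4 week MAC-1+ HSCs.

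**Figure D2:**
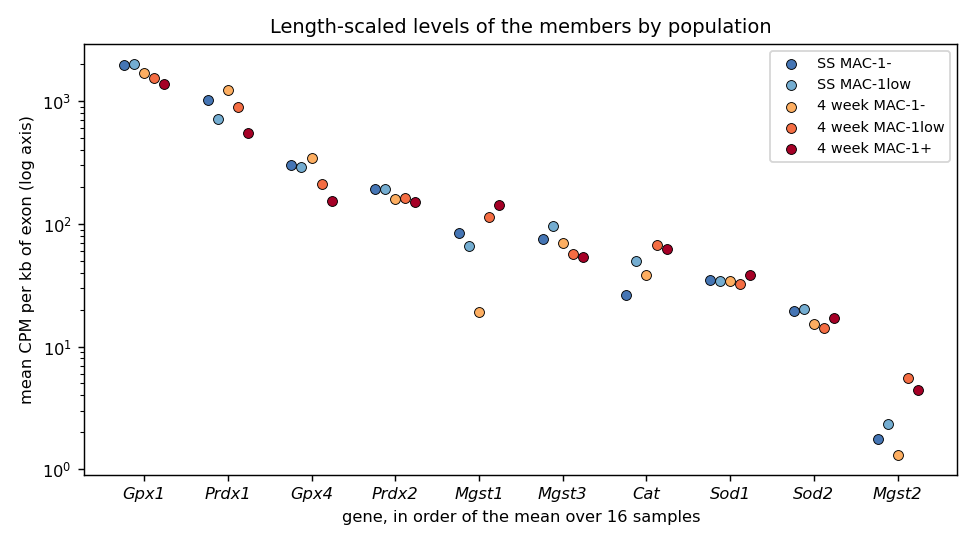
Mean CPM per kilobase of exon (vertical log axis) of each of the 10 genes in each of the 5 populations, with genes in order of their mean over 16 samples. Gpx1 and Prdx1 lead in every population, and Mgst1 has its lowest level in 4 week MAC-1- HSCs.

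The peroxide-removing enzymes Gpx4 and Prdx1 were lower in MAC-1+ than in MAC-1- HSCs at 4 weeks, the opposite direction to Mgst1. Of the 9 tested members, 2 passed the test in this comparison, both lower, beside 3.25% of all 13661 tested genes called at an adjusted p below 0.1. The median log2 difference of the 9 was -0.08, beside 0.0674 over all tested genes. The same 2 were the members whose groups did not overlap with MAC-1+ lower, which held for 11.5% of all tested genes.

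Gpx4 encodes the glutathione peroxidase that reduces lipid peroxides in membranes and restrains ferroptosis. It lies on chr10:80047166-80056439, plus strand. Its level was 522, 582 and 669 CPM in 4 week MAC-1- samples, 336, 439, 397 and 275 CPM in 4 week MAC-1low samples, and 265, 275 and 258 CPM in 4 week MAC-1+ samples. The MAC-1- samples were above both other populations, and the MAC-1low and MAC-1+ ranges met at 275 CPM. MAC-1+ HSCs were 2.22-fold lower than MAC-1- HSCs, with a log2 difference of -1.15 ± 0.18 (SE) and an edgeR adjusted p of 0.00397.

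Prdx1, a cytosolic peroxiredoxin that reduces hydrogen peroxide with electrons from thioredoxin, lies on chr4:116685544-116700822, plus strand. It stood at 3571, 4074 and 3585 CPM in 4 week MAC-1- samples, 2759, 2715, 2502 and 2853 CPM in MAC-1low samples, and 2162, 1514 and 1399 CPM in MAC-1+ samples. Each step from MAC-1- to MAC-1low to MAC-1+ was without overlap. MAC-1+ against MAC-1- gave a 2.21-fold lower mean, a log2 difference of -1.15 ± 0.17 (SE) and an edgeR adjusted p of 0.003.

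Both calls were kept in all 24 alternative fits, with adjusted p of at most 0.0713 for Gpx4 and 0.0777 for Prdx1. Without 4 week MAC-1+ replicate 3, the sample with the highest neutrophil markers, Gpx4 differed by -1.10 (log2), and the edgeR adjusted p was 0.0286 for Gpx4 and 0.0208 for Prdx1.

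**Figure D3:**
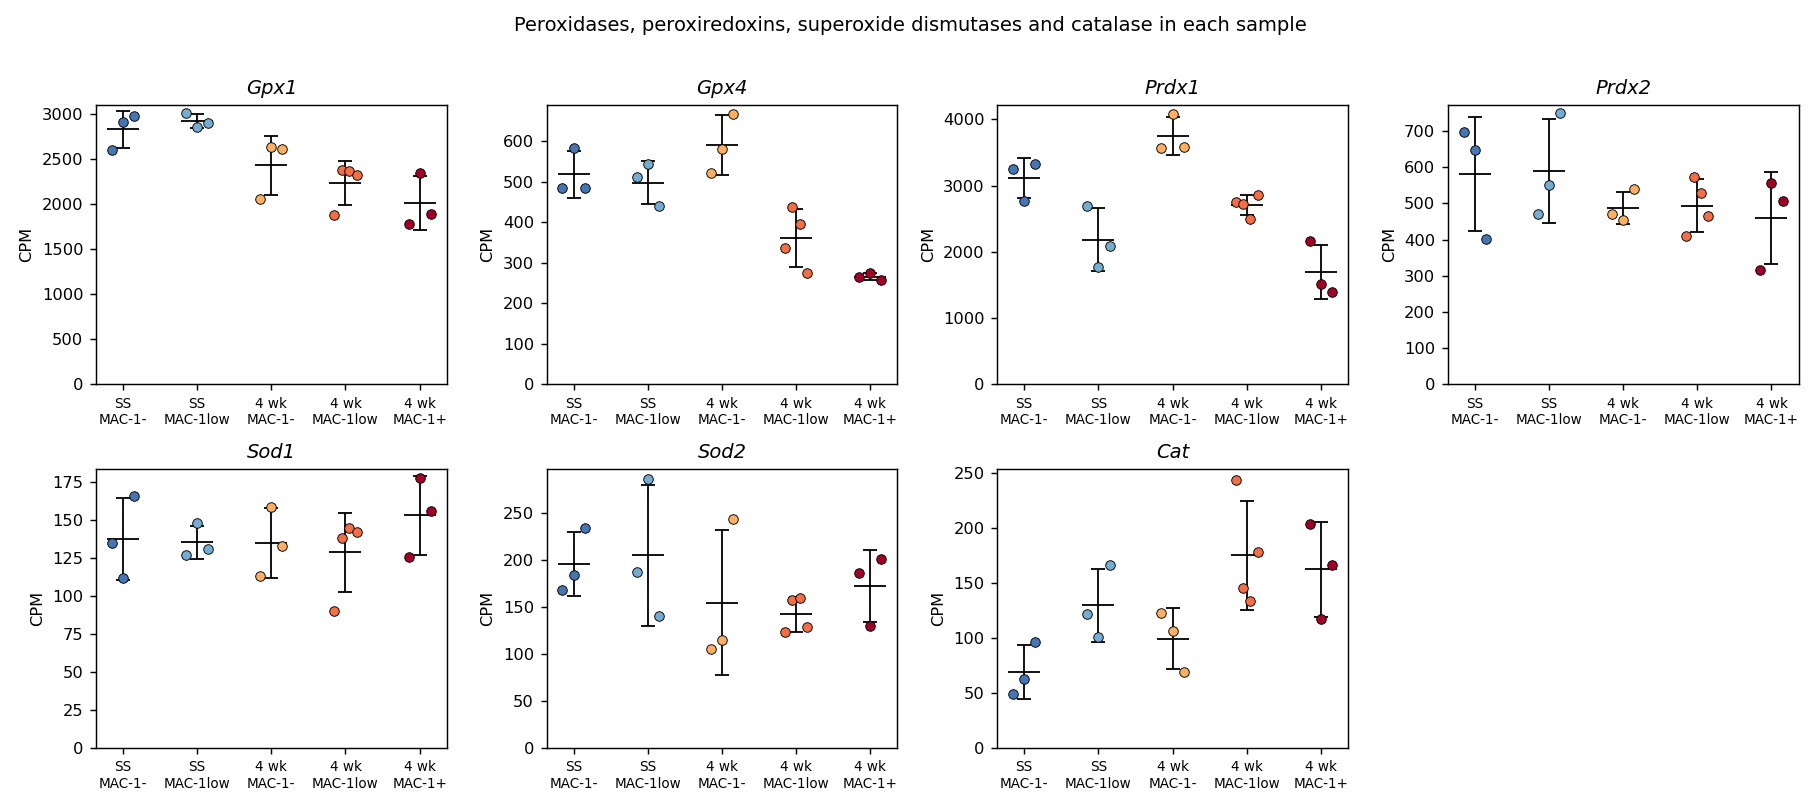
Levels of the 7 antioxidant enzymes in CPM (vertical axes, from 0) in the 5 HSC populations, with a point for each sample and a bar with whiskers for the mean ± SD. Gpx4 falls to 258 to 275 CPM and Prdx1 to 1399 to 2162 CPM in 4 week MAC-1+ samples, while Prdx2, Sod1 and Sod2 overlap in every comparison of populations that was tested.

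Between 4 week MAC-1low and MAC-1- HSCs none of the 9 members was called by edgeR, beside 0.278% of all tested genes, and 3 had an unadjusted p below 0.05 (7.25% of all tested genes did). DESeq2 called 1, Gpx4, beside 4.03% of all genes to which it gave an adjusted p, and limma-voom called 2, Gpx4 and Prdx1, beside 2.26%. Gpx4 differed by -0.71 ± 0.17 (log2, SE) with an edgeR adjusted p of 0.159, Prdx1 by -0.47 ± 0.16 with 0.491, and Cat by 0.82 ± 0.33 with 0.609. Of the 9, Mgst2 and Cat had no overlap with MAC-1low higher, beside 5.23% of all tested genes, and Gpx4 and Prdx1 had none with MAC-1low lower, beside 5.53%.

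Between 4 week MAC-1+ and MAC-1low HSCs none of the 9 was called by edgeR, as was true of all tested genes (0.00% called), and 2 had an unadjusted p below 0.05 (6.85% of all tested genes did). DESeq2 called Prdx1, beside 3.17% of its genes, and limma-voom called 0. Prdx1 differed by -0.68 ± 0.16 (log2, SE, edgeR adjusted p = 0.463), and it was the 1 member without overlap and lower in MAC-1+, beside 4.48% of all tested genes. Without 4 week MAC-1+ replicate 1 edgeR called it, with a difference of -0.89 and an adjusted p of 0.0491. Gpx4 differed by -0.44 ± 0.17 with an adjusted p of 0.682.

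At steady state, MAC-1low and MAC-1- HSCs were compared to ask whether the members track MAC-1 without transplantation. None of the 9 was called by edgeR, DESeq2 or limma-voom, which called 0.0146%, 6.78% and 0.00% of all genes with an adjusted p. In edgeR, 2 of the 9 had an unadjusted p below 0.05 (9.36% of all tested genes did). These were Prdx1 and Cat. Prdx1 stood at 3246, 2767 and 3328 CPM in MAC-1- samples and at 2698, 1773 and 2082 CPM in MAC-1low samples. The groups did not overlap, and the difference of -0.51 ± 0.17 (log2, SE) had an edgeR adjusted p of 0.493.

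Cat, catalase, which splits hydrogen peroxide in peroxisomes, lies on chr2:103453849-103485160, minus strand. It stood at 49.1, 62.3 and 96.6 CPM in SS MAC-1- samples and at 122, 101 and 166 CPM in SS MAC-1low samples. These groups did not overlap either, and the difference was 0.91 ± 0.35 (log2, SE) with an edgeR adjusted p of 0.513. In the 4 week populations Cat was 123, 106 and 69.3 CPM in MAC-1-, 244, 145, 134 and 178 CPM in MAC-1low, and 204, 117 and 166 CPM in MAC-1+ samples. MAC-1low samples thus lay above MAC-1- samples at both time points, by a similar log2 difference and without passing the test at either. Over the 9 members, 1 had no overlap and was higher in SS MAC-1low (Cat, beside 5.95% of all tested genes), and 1 was lower (Prdx1, beside 5.38%).

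**Figure D4:**
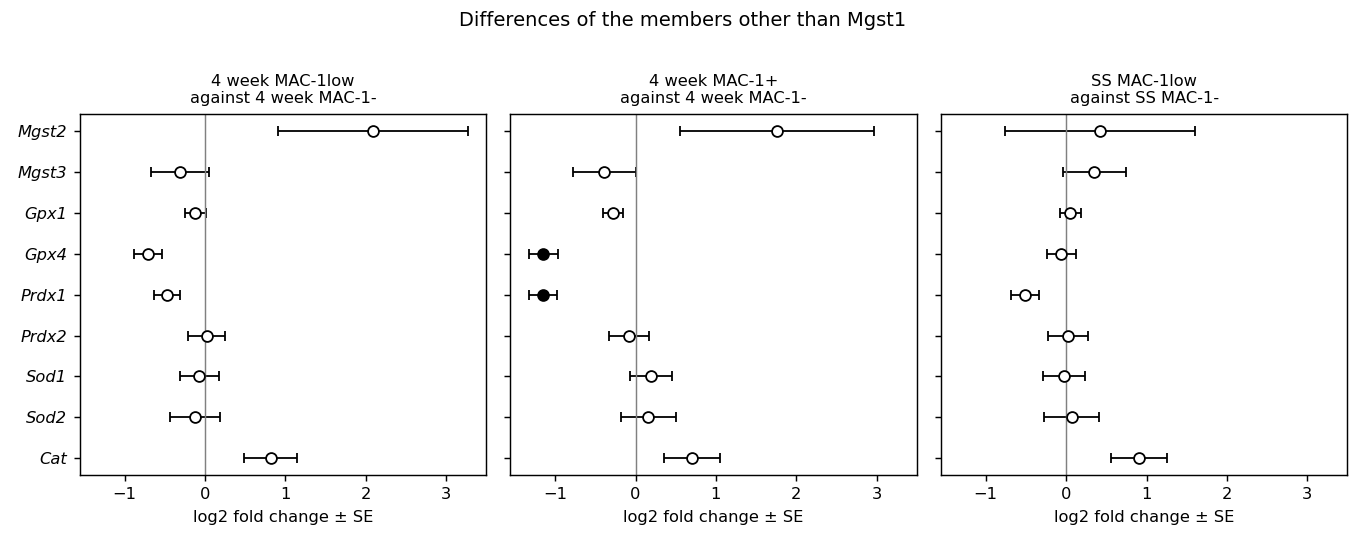
Log2 fold changes with their standard errors (horizontal axes) of the 9 members other than Mgst1 in 3 comparisons. Filled points passed edgeR's test at an adjusted p below 0.1, which holds for Gpx4 and Prdx1, both at -1.15, where 4 week MAC-1+ HSCs are set against MAC-1- HSCs of that time.

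The difference between MAC-1low and MAC-1- HSCs was itself compared between 4 weeks and steady state, the contrast on which Mgst1 was chosen. Among the other 9 members none was called by edgeR, DESeq2 or limma-voom, which called 0.0586%, 5.28% and 0.117% of all genes with an adjusted p. In edgeR, 1 of the 9, Gpx4, had an unadjusted p below 0.05 (8.73% of all tested genes did). For Gpx4 the 4 week difference was -0.71 and the SS difference -0.06, an interaction of -0.65 ± 0.25 (log2, SE) with an edgeR adjusted p of 0.484. The interaction of Prdx1 was 0.04 ± 0.23, as its MAC-1low samples were lower by a similar amount at both time points, and that of Cat was -0.09 ± 0.47.

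Transplanted and untreated HSCs were compared within MAC-1 classes. Between MAC-1- HSCs at 4 weeks and at steady state none of the 9 members was called by edgeR, DESeq2 or limma-voom. These tools called 0.432%, 7.81% and 0.608% of all genes with an adjusted p. In edgeR, 0 of the 9 had an unadjusted p below 0.05 (10.4% of all tested genes did). Prdx1 differed by 0.27 ± 0.17 (log2, SE, edgeR adjusted p = 0.606). Between MAC-1low HSCs at 4 weeks and at steady state edgeR called none, beside 0.0439% of all tested genes, and 2 had an unadjusted p below 0.05 (8.89% of all tested genes did). DESeq2 called 1, Gpx1, beside 4.60% of its genes, and limma-voom 0. Gpx1, the abundant cytosolic glutathione peroxidase, lay at 1875 to 2375 CPM in 4 week and 2860 to 3014 CPM in SS MAC-1low samples, a difference of -0.39 ± 0.13 (log2, SE) with an edgeR adjusted p of 0.417. Gpx4 differed by -0.46 ± 0.17 with an adjusted p of 0.475.

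MAC-1+ HSCs, present in the series only after transplantation, were set against both SS populations. Against SS MAC-1- HSCs, 3 of the 9 members were called, all lower, beside 2.36% of all tested genes, with a median log2 difference of -0.34 over the 9 and 0.0176 over all tested genes. Gpx4 (266 ± 8.58 against 519 ± 57.6 CPM, SD, n = 3 each) differed by -0.96 ± 0.18 (log2, SE, edgeR adjusted p = 0.0201). Prdx1 (1692 ± 411 against 3114 ± 303 CPM) differed by -0.88 ± 0.17 with an adjusted p of 0.0232. Each of these calls was lost in 1 of 24 alternative fits, the one that held only the populations compared (adjusted p = 0.18 and 0.21).

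Gpx1 lies on chr9:108338903-108340343, plus strand. It stood at 1783, 2351 and 1893 CPM in 4 week MAC-1+ samples and at 2600, 2913 and 2979 CPM in SS MAC-1- samples, with no overlap. Its difference of -0.49 ± 0.13 (log2, SE) had an edgeR adjusted p of 0.0981, and the call was lost in 17 of 24 alternative fits. Of the fits that left out 1 sample, it was kept only in those without 4 week MAC-1- replicate 1, 4 week MAC-1low replicate 1 or 4 week MAC-1+ replicate 2. Cat was higher in every MAC-1+ than in every SS MAC-1- sample, by 1.23 ± 0.35 (log2, SE), and missed the threshold with an edgeR adjusted p of 0.117. DESeq2 called it, and edgeR called it without SS MAC-1- replicate 3 (adjusted p = 0.0808).

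Against SS MAC-1low HSCs, 2 of the 9 members were called, both lower, beside 1.42% of all tested genes, with a median log2 difference of -0.36 over the 9 and -0.00575 over all tested genes. Gpx4 differed by -0.91 ± 0.18 (log2, SE, edgeR adjusted p = 0.0469) and Gpx1 by -0.54 ± 0.14 (edgeR adjusted p = 0.0967). The Gpx4 call was lost in 8 of 24 alternative fits, among them those without SS MAC-1low replicates 1 or 2 or without any 1 of the 4 week MAC-1+ replicates, and the Gpx1 call in 18. With 1 sample left out, the Gpx1 call was kept only without 4 week MAC-1low replicate 1 or 4 week MAC-1+ replicate 2. Prdx1 differed by -0.37 ± 0.17 with an adjusted p of 0.402. The comparisons against 4 week MAC-1-, SS MAC-1- and SS MAC-1low HSCs share the 3 MAC-1+ samples.

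The remaining members were not called in any comparison. Prdx2, the second cytosolic peroxiredoxin, ranged from 316 to 750 CPM over all samples, with log2 differences between -0.36 and 0.02 in the 8 comparisons of populations. Sod1, the copper-zinc superoxide dismutase of the cytosol, ranged from 90 to 178 CPM, and its population means lay between 129 and 153 CPM. Sod2, the manganese enzyme of mitochondria, ranged from 105 to 286 CPM, and its population means lay between 142 and 204 CPM. The ranges of Prdx2, Sod1 and Sod2 overlapped in every comparison. Prdx2 overlaps Rnaseh2a and Junb, and Sod1 overlaps Scaf4, on the opposite strand, and the sources used here do not say if the counting took strand into account. The copy Prdx2-rs3 had at most 1 count in a sample.

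Other antioxidant genes were taken from a list of 68, of which 67 stood in the table and 56 were tested. In 4 week MAC-1+ against MAC-1- HSCs, 5 of the 56 were called, 3 higher and 2 lower, beside the 3.25% of all tested genes. The median log2 difference of the 56 was 0.04.

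The gene closest in function to Mgst1 among those called was Gstm1, a cytosolic glutathione transferase. It stood at 88.9, 98.6 and 87.6 CPM in 4 week MAC-1- samples, 183, 326, 270 and 212 CPM in MAC-1low samples, and 335, 305 and 352 CPM in MAC-1+ samples. SS MAC-1- samples held 361, 605 and 268 CPM, and SS MAC-1low samples 279, 248 and 314 CPM. As with Mgst1, all 4 week MAC-1- samples were below all others. The log2 difference was 1.43 ± 0.26 (SE, edgeR adjusted p = 0.0493) for 4 week MAC-1low and 1.85 ± 0.28 (adjusted p = 0.00333) for MAC-1+, both against MAC-1-. MAC-1- HSCs at 4 weeks differed from those at steady state by -2.16 ± 0.28 with an edgeR adjusted p of 0.00392, a call lost only when the fit held just those populations (adjusted p = 0.16). The MAC-1low call was lost in 7 of 24 alternative fits, among them those without any 1 of the 4 week MAC-1- replicates or without 4 week MAC-1low replicates 2 or 3. Of the 20 cytosolic glutathione transferases in the table, 14 were tested and no other was called.

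Txn1, thioredoxin, which recharges peroxiredoxins, was lower in MAC-1+ than in MAC-1- HSCs at 4 weeks, as was Prdx1. It stood at 1473, 1421 and 1167 CPM in 4 week MAC-1- samples, 1098, 1133, 892 and 983 CPM in MAC-1low samples, and 818, 680 and 595 CPM in MAC-1+ samples, each step without overlap. MAC-1+ against MAC-1- gave -0.96 ± 0.16 (log2, SE) with an edgeR adjusted p of 0.00563, or 0.103 when the fit held only the populations compared. At steady state Txn1 overlapped between MAC-1low (848 CPM) and MAC-1- HSCs (885 CPM), with a difference of -0.06 ± 0.16 (edgeR adjusted p = 0.985), where that of Prdx1 was -0.51. Txnip, which binds and inhibits thioredoxin, went the other way, with 67.4, 121 and 56.9 CPM in MAC-1- and 207, 254 and 276 CPM in MAC-1+ samples at 4 weeks. Its difference was 1.58 ± 0.34 (log2, SE) with an edgeR adjusted p of 0.0231, and the call was lost without 4 week MAC-1- replicate 1 (adjusted p = 0.113) or 3 (adjusted p = 0.117), and with only the populations compared (adjusted p = 0.114). Of the 14 listed genes of peroxiredoxins, thioredoxins and their regulators, all were tested and no other was called.

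Glrx3, a glutaredoxin that handles iron-sulfur clusters, was lower in MAC-1+ than in MAC-1- HSCs at 4 weeks (182 against 383 CPM, log2 difference -1.07 ± 0.29, SE, edgeR adjusted p = 0.078), a call lost in 17 of 24 alternative fits. With 1 sample left out, it was kept only without any 1 of the SS MAC-1- replicates or without 4 week MAC-1low replicate 1. Fth1, the ferritin heavy chain that stores iron, was higher in MAC-1+ HSCs (1648 against 1149 CPM) by 0.52 ± 0.14 (log2, SE, edgeR adjusted p = 0.068). In MAC-1- HSCs Fth1 was lower at 4 weeks than at steady state, by -0.69 ± 0.14 (log2, SE, edgeR adjusted p = 0.0613). Each Fth1 call was lost in 8 of 24 alternative fits, including those without any 1 of the 4 week MAC-1- replicates, and without 4 week MAC-1+ replicates 2 or 3 in the first comparison or SS MAC-1- replicates 2 or 3 in the second. Ftl1, the ferritin light chain, was lower in 4 week MAC-1+ than in SS MAC-1low HSCs by -0.80 ± 0.20 (log2, SE, edgeR adjusted p = 0.0957), a call lost in 16 of 24. With 1 sample left out, it was kept only without SS MAC-1- replicate 3, SS MAC-1low replicate 1 or 4 week MAC-1low replicates 1 or 2.

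**Figure D5:**
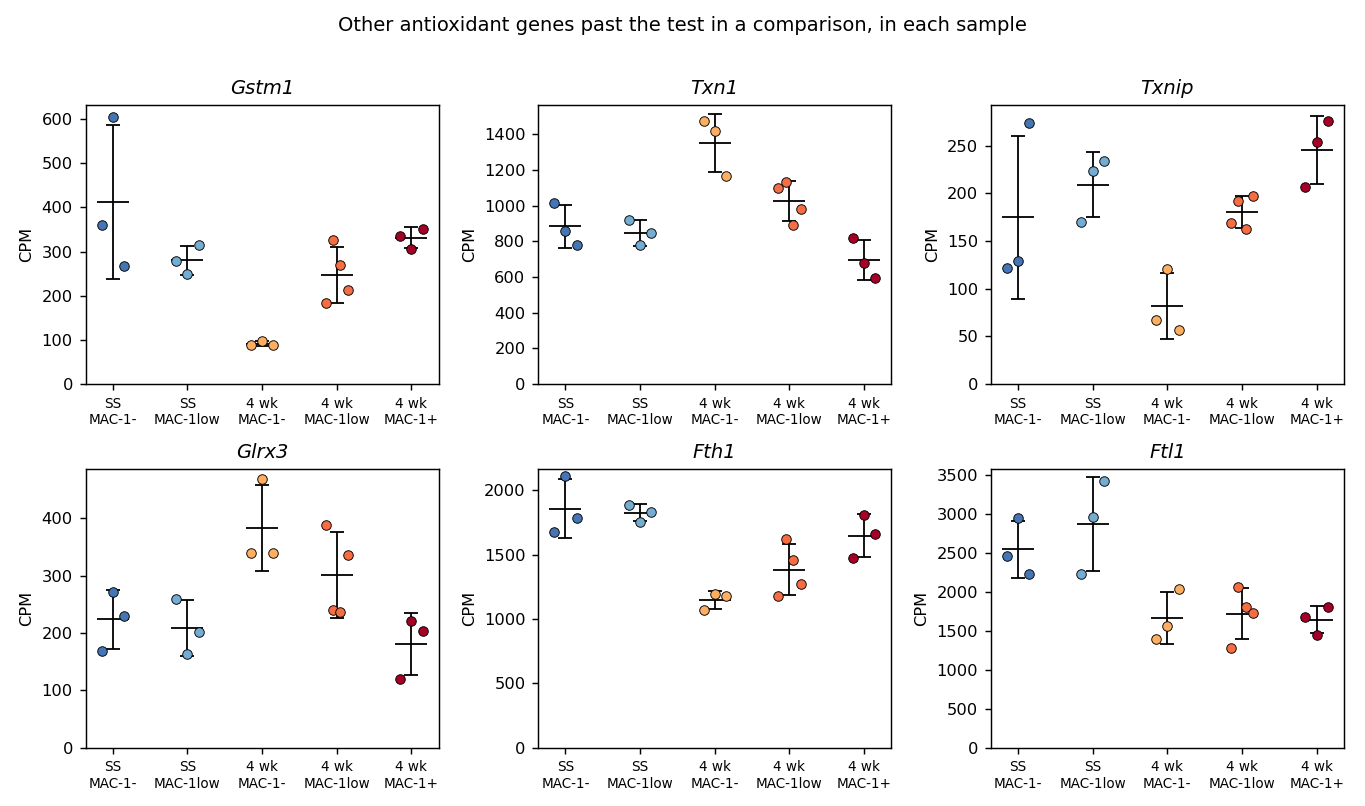
Levels in CPM (vertical axes, from 0) of the 6 other antioxidant genes that passed the test in a comparison, in the 5 HSC populations, with a point for each sample and a bar with whiskers for the mean ± SD. Gstm1 is lowest in 4 week MAC-1- samples (87.6 to 98.6 CPM), where Txn1 is highest (1167 to 1473 CPM).

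Counts called in the remaining comparisons were few. Besides Gstm1 in 4 week MAC-1low against MAC-1- HSCs, Gstm1 and Fth1 in MAC-1- HSCs across time, and Ftl1, edgeR called 0 of the 56 in the other 4 comparisons and in the interaction. Unadjusted p were below 0.05 for 7 genes in 4 week MAC-1+ against MAC-1low, 5 in SS MAC-1low against MAC-1-, 3 in MAC-1low across time, 11 in 4 week MAC-1+ relative to SS MAC-1- HSCs and 3 in the interaction, where 6.85%, 9.36%, 8.89%, 14% and 8.73% of all tested genes did. The 7 and 11 genes of 4 week MAC-1+ against MAC-1low and against SS MAC-1- are above those shares of the 56. The 5, 3 and 3 genes of SS MAC-1low, MAC-1low across time and the interaction are below them. DESeq2 called 4, 4, 4, 7 and 4 of the 54 list genes with an adjusted p there, or 7.41%, 7.41%, 7.41%, 13% and 7.41%, beside 3.17%, 6.78%, 4.60%, 12.3% and 5.28% of all genes with a DESeq2 adjusted p. Limma-voom called 0, 0, 1, 0 and 0, beside 0.00732%, 0.00%, 0.176%, 1.39% and 0.117% of all tested genes.

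Genes of the antioxidant response named for their role were not called by edgeR in any comparison. Nfe2l2, which encodes the factor NRF2 that drives antioxidant genes, had population means of 91.3 to 120 CPM. Gclm and Gclc, the subunits of the enzyme that starts glutathione synthesis, had means of 132 to 178 and 16.5 to 42.5 CPM, and Gsr, which recycles oxidised glutathione, 49.5 to 78.7 CPM. Txnrd1, thioredoxin reductase, ran from 27.3 CPM in SS MAC-1- to 63.5 CPM in 4 week MAC-1+ HSCs, a log2 difference of 1.21 ± 0.51 (SE) with an edgeR adjusted p of 0.305, and DESeq2 called it (adjusted p = 0.0689). Nqo1, a quinone reductase, had means of 5.97 to 26.5 CPM. Of the relatives of the microsomal transferases, Alox5ap, which presents arachidonic acid to 5-lipoxygenase, was even at means of 211 to 295 CPM. Ltc4s, Ptges and Hmox1, the enzymes that make leukotriene C4 and prostaglandin E2 and that break down heme, had samples at 0 counts and at most 198, 422 and 103 counts, and no fold change is given for them. DESeq2 called Ptges in 5, Hmox1 in 3 and Ltc4s in 2 of the 8 comparisons and the interaction, and limma-voom called none of the 3.

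The genes whose log2 CPM followed Mgst1 most closely over the 16 samples, among 8020 tested genes with a mean of at least 10 CPM, were Spi1 (Pearson r = 0.904), Cd74 (0.901), Fmnl2 (0.886), Pqlc3 (0.859) and Wfdc17 (0.854). The points share populations. All 5 genes were picked for following Mgst1, so it is no separate result that each had its lowest mean in 4 week MAC-1- HSCs. Spi1, which encodes the myeloid factor PU.1, had means of 3.8 CPM there and 32.6 to 52.5 CPM in the other populations. Cd74, the invariant chain of MHC class II, had 25 CPM there and 117 to 501 CPM elsewhere.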

How the data were processed

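RNA-seq covered 16 samples from 5 HSC populations, and columns were matched to samples by their labels. The authors deposited raw read counts per gene, without normalization, made per the labels with SMART-Seq v4 and Nextera XT libraries and per the study's methods with the nf-core RNA-seq pipeline 1.4.2 and STAR. Which program, genome build and annotation the counting used was not given in the sources used here. GENCODE M21 held 98% of the gene identifiers. SMART-Seq carries no molecular identifiers, so PCR copies are counted as reads. The members and lists were chosen with earlier results of these data known. Named genes were the 10 members, listed antioxidant genes called in a comparison, listed genes named for their role in any case, and the 5 genes most correlated with Mgst1.

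edgeR 4.0.16 (R 4.3.3) was run on the counts with TMM factors, its default filter (13661 genes tested) and the robust quasi-likelihood test in 1 model of 5 population means. Genes were called at a Benjamini-Hochberg adjusted p below 0.1. CPM use TMM factors, and log2 CPM a prior count of 2. The SE of an edgeR log2 difference was not fitted but is its absolute value over the square root of the test's F statistic. DESeq2 1.42.0 and limma-voom 3.58.1 with sample weights, other scaling, filters, sample sets, a covariate, a replicate block and each sample left out were alternatives. Tests were first checked on simulated data.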

Additional observations from a re-analysis of the deposited data

Results flagged for a closer look

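Dixon's test for a single distant value was applied only to the 4 week MAC-1low population, the only group of 4 samples. In it, replicate 1 stood apart for 2 of the 10 members. Gpx1 was 1875 CPM there and 2321, 2371 and 2375 CPM in the other replicates, with a gap over range of 0.892. Sod1 was 90 CPM there and 138, 142 and 145 CPM in the others, with a gap over range of 0.873. Both exceed Dixon's 95% critical value for 4 samples, and chance flags about 1 in 20 such groups. Mgst1 was below the critical value in this population, at 0.716, where replicate 2 was highest. Gpx1 and Sod1 were also lowest in replicate 1 of the other 4 week populations. Gpx1 stood there at 2053 CPM in MAC-1- and 1783 CPM in MAC-1+ samples, and Sod1 at 113 and 126 CPM. The 4 week replicate 1 samples had the highest mitochondrial share of their populations, 9.15% in MAC-1-, 9.55% in MAC-1low and 9.62% in MAC-1+. What these samples share was not tested.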

How the results depend on the processing

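No result changed direction in any alternative. In 4 week MAC-1+ against MAC-1- HSCs 2 members were called in all alternatives. Counts of called members moved to 1 with DESeq2 and 2 with limma-voom for 4 week MAC-1low against MAC-1-. DESeq2 gave 1 for 4 week MAC-1+ against MAC-1low (0 to 1 with a sample left out) and for MAC-1low across time. For 4 week MAC-1+ relative to SS MAC-1-, the fit with only the populations compared gave 0, beside 0.168% of all genes. Other alternatives gave 2 to 4, or 2 to 3 with a sample left out. For 4 week MAC-1+ relative to SS MAC-1low, limma-voom, DESeq2's size factors and detected genes as covariate gave 1, beside 0.761%, 1.05% and 1.08%. An adjusted p below 0.05 also gave 1. No filter and only the populations compared gave 0, beside 0.571% and 0.00870%. A sample left out gave 0 to 2.

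For the other antioxidant genes, DESeq2 called 5 in 4 week MAC-1low against MAC-1-, 11 in 4 week MAC-1+ against MAC-1-, 13 in MAC-1- across time, 7 in 4 week MAC-1+ against SS MAC-1-, 6 against SS MAC-1low, and 4 in each remaining comparison. As shares of 54 genes the first 5 were 9.26%, 20.4%, 24.1%, 13% and 11.1%, beside 4.03%, 11.6%, 7.81%, 12.3% and 9.41% of all genes with a DESeq2 adjusted p. Limma-voom called 4 in 4 week MAC-1low against MAC-1-, 7 in 4 week MAC-1+ against MAC-1- and 3 in MAC-1- across time. It also called 1 each in MAC-1low across time and in 4 week MAC-1+ against SS MAC-1low. As shares of 56 genes these were 7.14%, 12.5%, 5.36%, 1.79% and 1.79%, beside 2.26%, 6.34%, 0.608%, 0.176% and 0.761% of all tested genes. With no filter the counts were 2 for 4 week MAC-1low against MAC-1-, 3 for 4 week MAC-1+ against MAC-1-, and 1 each for MAC-1- across time, MAC-1low across time and the interaction. Of all genes in that fit, 0.173%, 1.09%, 0.245%, 0.154% and 0.0973% were called in these. With only the populations compared the list counts were 0, 1, 0 and 0, beside 0.140%, 1.32%, 0.0619% and 0.00870% of all genes. The comparisons were 4 week MAC-1low against MAC-1-, 4 week MAC-1+ against MAC-1-, MAC-1- across time and 4 week MAC-1+ relative to SS MAC-1low. With the covariate, and likewise with an adjusted p below 0.05, the list counts were 3, 1 and 0 for the last 3 of these. The covariate fit called 2.43%, 0.183% and 1.08% of all tested genes there. With a sample left out the list counts ran from 0 to 1, 2 to 5, 1 to 3 and 0 to 1 for the same 4 comparisons, and from 0 to 1 for 4 week MAC-1+ relative to SS MAC-1- and for the interaction. The cause of these shifts was not tested, but some of these fits hold fewer samples.

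Over all tested genes, 4 week MAC-1+ against MAC-1- gave 444 calls, or 1605 with DESeq2, 866 with limma-voom and 154 with only the populations compared. For 4 week MAC-1low against MAC-1- the 38 calls became 557, 309 and 17, for 4 week MAC-1+ relative to SS MAC-1- the 323 became 1703, 190 and 19, and for 4 week MAC-1+ relative to SS MAC-1low the 194 became 1299, 104 and 1. No scaling moved the median log2 difference of all genes by more than 0.1.

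Replicate numbers in the sample titles were not taken as pairs. Deviations of same-numbered samples of different populations correlated at r from -0.025 to 0.04 (30 pairs). Pairs with different numbers gave -0.026 to 0.028 (72 pairs). Among the 30, the 4 week replicate 1 samples gave 0.04, 0.033 and 0.025. Column labels order some 4 week samples differently. Pairing by that order was not tested, and no block was built on it. With a block by title number the called members numbered 2, 3 and 2 for 4 week MAC-1+ against 4 week MAC-1-, SS MAC-1- and SS MAC-1low, and 0 elsewhere. Of all tested genes, 2.39%, 1.49% and 0.739% were called in those 3. The block called 4 other antioxidant genes for 4 week MAC-1+ against MAC-1-, 2 for MAC-1- across time (beside 0.190%) and 0 elsewhere. All genes called in 4 week MAC-1low against MAC-1- fell from 38 to 8.

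Groups of 3 or 4 samples limit what can be called. The common biological coefficient of variation of 1.13 holds over all tested genes. Gpx1, Gpx4 and Prdx1 varied less, with an SD of 2.75% to 24.3% of the mean within populations. Mgst2, with 4 to 687 counts, is measured least precisely. Alternatives for single genes were run for called genes and for members with an unadjusted p below 0.05.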
